A study of Mus musculus with 4 samples.

Results

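The regions described here are RFX2 peaks at the promoters of long non-coding RNA (lncRNA) genes that share no promoter with a protein-coding gene. A member was a peak of the replicate 1 list that overlapped a replicate 2 peak by at least 1 bp and met the promoter of a lncRNA gene, from 1000 bp upstream to 500 bp downstream of any of its transcription start sites (TSSs), and no such promoter of a protein-coding gene. Of the 39825 peaks in the replicate 1 list, 8060 were met by replicate 2 (20.2%), and 319 of these were members. They lay at the promoters of 322 lncRNA genes in the GENCODE M21 annotation of GRCm38.

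RFX2 was mapped by ChIP-seq in the testes of wild-type mice of mixed C57BL/6, 129/Sv and FVB/N background, with an antibody against RFX2, in 2 immunoprecipitated samples and 2 input samples. The labels give decapsulated testis at postnatal days 29 to 30, whereas the study's text describes dissociated germ cells of younger mice, so the age is given here as the labels have it. The tissue holds several germ cell stages and somatic cells, and a peak does not say which of them carried the protein. Nothing states that the samples came from separate animals, and no list of an input sample was analysed here. Depth is unknown for the peak lists, which give positions and scores and no read counts.

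RFX2 belongs to the regulatory factor X family, winged-helix transcription factors that bind the X-box, an imperfect inverted repeat, often as dimers. The family is known for switching on genes of the cilium, and RFX2 is abundant in spermatocytes and round spermatids, where it is needed to build the flagellum. The testis transcribes an unusually broad set of lncRNAs, most of them of unknown function, and many are named only by a clone or number. Some start within transposable elements, whose ends can carry binding sites for transcription factors.

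The X-box was searched as the 14-bp palindrome made of the arm GTTGCCA and its reverse complement, with at most 3 mismatches, in the 200 bp around each peak centre. The sites of 5 members, shown because they matched the palindrome without mismatch, are given 5′ to 3′ on the plus strand with 20 bp on each side, the X-box in capitals.
1700041B01Rik: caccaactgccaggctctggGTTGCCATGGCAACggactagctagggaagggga
Gm14286: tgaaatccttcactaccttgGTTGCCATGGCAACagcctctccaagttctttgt
1700029J03Rik: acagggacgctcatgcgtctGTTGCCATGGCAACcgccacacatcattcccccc
Gm42851: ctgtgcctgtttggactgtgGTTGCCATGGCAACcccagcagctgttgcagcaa
Gm15350: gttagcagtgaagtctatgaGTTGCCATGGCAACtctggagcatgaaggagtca

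The 5 lie at chr15:78670570-78670623, chr2:157546859-157546912, chr16:93458903-93458956, chr5:33948504-33948557 and chr8:12832295-12832348 of GRCm38. At 1700041B01Rik, an antisense gene whose peak centre lay in an exon of Elfn2, the peak scored 210 in replicate 1 and 95.0 in replicate 2. Gm14286 had scores of 196 and 57.4, and 1700029J03Rik had scores of 103 and 28.7. Gm42851 and Gm15350 had lower scores, of 39.4 and 36.1 in replicate 1 and of 27.3 and 20.1 in replicate 2. All 5 ranked among the 80 best members by summed score rank.

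A further 37 members had a site with 1 mismatch, and the 4 best by summed score rank are shown, since each differs from the palindrome at another position.
Gm29266: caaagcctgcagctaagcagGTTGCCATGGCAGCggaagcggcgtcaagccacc
1700041G16Rik: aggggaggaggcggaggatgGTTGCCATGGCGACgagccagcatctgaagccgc
6330576A10Rik: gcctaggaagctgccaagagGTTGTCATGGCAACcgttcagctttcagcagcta
1110036E04Rik: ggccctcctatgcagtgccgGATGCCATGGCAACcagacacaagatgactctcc

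With palindrome positions numbered from 1 at its 5′ end, the difference is A13G at Gm29266, A12G at 1700041G16Rik, C5T at 6330576A10Rik and T2A at 1110036E04Rik. These sites lie at chr14:60485658-60485711, chr8:22808140-22808193, chr14:100459300-100459353 and chr9:64050178-64050231. Over the 156 members with an X-box, position 4 matched the palindrome least often, in 64.7% of sites, followed by its partner in the other arm, position 11, in 71.8%. The outermost base, position 14, matched in 94.9%.

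Members held an X-box at the peak centre far more often than 1000 bp away. The centre window held a site in 156 of 319 members (48.9%, 95% Wilson interval 43.5 to 54.4), against a background of 52.7% over all 8060 replicated peaks. The flank window held one in 4 members (1.25%). In 154 members the site was in the centre only and 2 members had it in the flank alone (two-sided exact McNemar test, p = 2.7e-43, adjusted p = 1.3e-42 over 5 tests). For scale, the 200 bp around the 5′-most TSS held such a site in 2.51% of all 10155 lncRNA genes and in 2.53% of protein-coding genes. Searching the whole peak instead of its centre raised the count to 202 members.

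**Figure D1:**
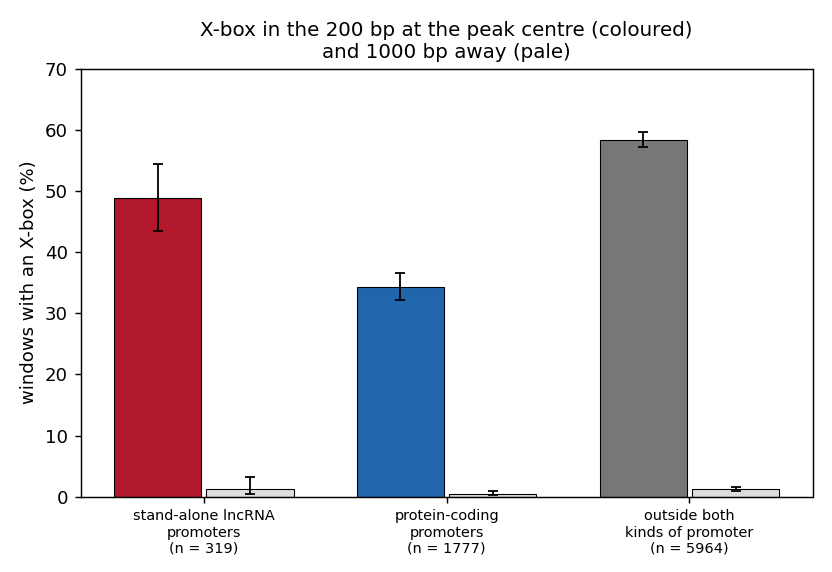
The bars give the percentage of 200-bp windows with an X-box of at most 3 mismatches, at the peak centre (coloured) and 1000 bp to the right (pale), for the 3 classes of replicated peak, and the error bars are 95% Wilson intervals over peaks. The members, at 48.9%, stand between the peaks at protein-coding promoters and those outside both kinds of promoter, and the flank is at 1.25% or below in each class.

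The members stood between 2 other classes of replicated peak. Peaks at protein-coding promoters held an X-box in 610 of 1777 cases (34.3%), which was 14.6 percentage points below the members (two-sided Fisher's exact test, p = 1.0e-06, adjusted p = 1.7e-06, interval of the difference 8.69 to 20.5). The difference was 6.13 points with windows placed on the combined list's summits where there was one (exact p = 0.045, not adjusted over tests). Such a summit was at hand for 38.2% of members and 57.1% of peaks at protein-coding promoters. With windows on peak centres, the difference was 6.26 points in the replicate 1 list alone and 27.7 within the combined list. Peaks outside both kinds of promoter held one in 3480 of 5964 cases (58.4%), so the members were lower by 9.45 points (the same exact test, adjusted p = 0.0014, interval -15.0 to -3.84). That difference turned around when either replicate list was used alone, to +10.7 points in the replicate 1 list and +21.1 points in the replicate 2 list, where most peaks outside promoters were not met by the other replicate. Within the combined list it was -3.80 points (exact p = 0.43). These tests count peaks of the same libraries, so they measure the spread between regions and not between animals.

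The order of the classes was the same for close matches. At most 1 mismatch was found in 42 members (13.2%), in 5.63% of peaks at protein-coding promoters and in 17.6% of peaks elsewhere.

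Some of the members' X-boxes lay in sequence that recurs across the genome, a comparison chosen after the sequences were seen and therefore given without a test. The 20 bp on each side of the X-box were compared, in both orientations, among all 4246 replicated peaks with an X-box, and a pair with at least 28 of the 40 bases identical was called partners. Of the 156 X-boxes of members, 21 had at least 1 partner (13.5%, interval 8.98 to 19.7). Peaks at protein-coding promoters had one in 7 of 610 cases (1.15%), and peaks outside promoters in 375 of 3480 (10.8%). At least 10 partners were found for 12 members (7.69%), against 0.492% and 6.61% in the other classes. The genome file marks repeats in lower case, and by that mark 11 members' X-boxes were wholly repeat sequence (7.05%), against 2.13% at protein-coding promoters and 10% elsewhere.

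Among the members with partners, 9 formed 1 group by these flanks. They are shown in the orientation of the strongest, because the likeness runs well beyond the X-box.
4930553E22Rik: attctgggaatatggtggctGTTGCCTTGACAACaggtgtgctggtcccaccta
Gm47430: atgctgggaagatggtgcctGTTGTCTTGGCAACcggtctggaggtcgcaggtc
1700044C05Rik: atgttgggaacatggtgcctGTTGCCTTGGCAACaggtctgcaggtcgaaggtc
1700003I16Rik: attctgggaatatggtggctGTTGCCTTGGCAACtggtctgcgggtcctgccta
Gm47927: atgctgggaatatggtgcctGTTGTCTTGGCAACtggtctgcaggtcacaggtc
Gm38132: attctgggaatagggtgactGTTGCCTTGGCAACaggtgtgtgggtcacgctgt
4930554G24Rik: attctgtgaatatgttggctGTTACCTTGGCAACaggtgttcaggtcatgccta
Gm41279: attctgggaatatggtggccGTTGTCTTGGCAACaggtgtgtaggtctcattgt
Gm48722: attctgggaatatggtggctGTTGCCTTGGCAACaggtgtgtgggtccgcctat

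The capitals again mark the X-box. The group had between 76 and 134 partners per member, and its sites ran through chromosomes 3, 6, 9, 10, 11, 14, 15 and 16, so the copies are scattered. All 9 X-boxes held 1 or 2 mismatches. Over all replicated peaks, 144 of the 4246 X-boxes resembled a member of the group (3.39%). Of these, 9 were at members (5.77% of their X-boxes), 2 at protein-coding promoters (0.328%) and 133 elsewhere (3.82%). The 9 are the group itself, so the members' share is partly set by the choice. The likeness is of flanking letters, and no repeat annotation was used, so the element is not named here.

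In replicate 1 the 9 peaks scored between 16.2 and 193, and in replicate 2 between 5.06 and 50.04. The strongest was at 4930553E22Rik (chr16:84370446-84371802), a lincRNA, with its X-box 27 bp upstream of the TSS. Gm47430 followed with scores of 97.6 and 46.3. At 1700044C05Rik, 1700003I16Rik and Gm38132 the replicate 1 scores were 47.0, 34.7 and 39.4, and the X-boxes lay within 61 bp of the TSS. The combined list met 6 of the 9 peaks. Reads mapping to more than 1 place were discarded by the authors, and how far that touched these copies was not tested.

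A smaller group of 2 members held 4933425B07Rik, which shares its peak with Gm49319, and 1700028E10Rik, with 20 and 17 partners. Their X-boxes lay 32 and 30 bp upstream of the TSS. The sizes of both groups depend on the cut of 28 bases. The flanks of 1700029J03Rik and Gm31182 look much like that of 4933425B07Rik but fall below the cut. Those of 4930442G15Rik and of AC165153.2, read on the other strand, hold stretches like those of the larger group but were not placed in it. The 21 members with a partner had a median score of 33.2 in replicate 1 and 13.2 in replicate 2. The 135 X-box members without one had medians of 26.6 and 11.01, and the 163 members without an X-box had 17.1 and 9.05. By class of gene, 16 of the 21 were lincRNAs and 3 were antisense.

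**Figure D2:**
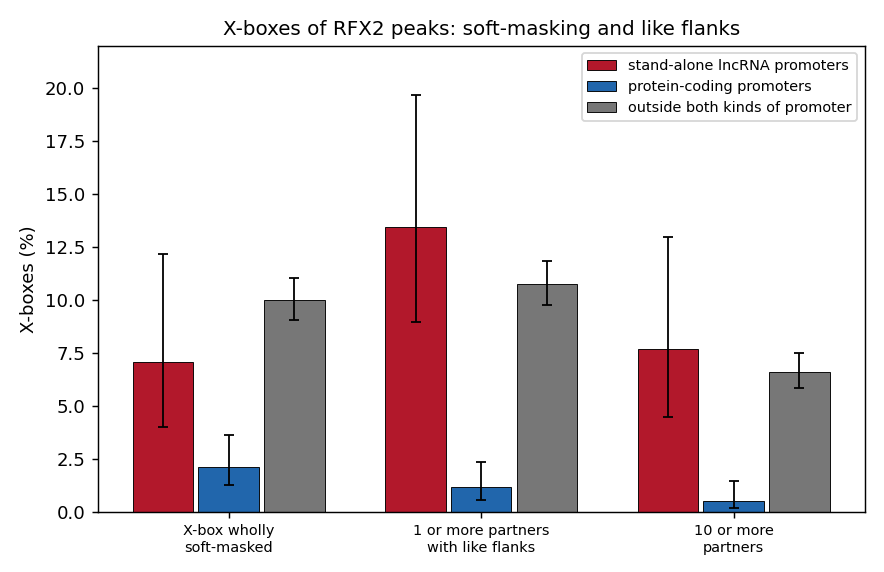
For the X-boxes of 3 classes of replicated peak, the bars give the percentage that was wholly soft-masked, had 1 or more partners with like flanks, or had 10 or more, with 95% Wilson intervals over X-boxes. The members are near the peaks outside promoters in each measure, at 13.5% and 10.8% with a partner, and the peaks at protein-coding promoters are at 1.15%.

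The score of a peak is on a −log10 scale as written by the peak caller, and a higher value means a smaller p-value or q-value, not a larger fold over input. Members had a median score of 21.97 in replicate 1 (quartiles 11.3 and 45.5, range 2.34 to 270) and of 9.74 in replicate 2 (quartiles 5.55 and 16.4, range 2.42 to 169). The score was higher in replicate 1 for 292 of the 319 members. Peaks at protein-coding promoters had medians of 37.8 and 18.8, and peaks outside promoters had 18.5 and 8.10. The members' scores in the 2 replicates ranked alike, with a Spearman rho of 0.759 over 319 peaks, a description since the peaks share their libraries and were kept because both lists held them.

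**Figure D3:**
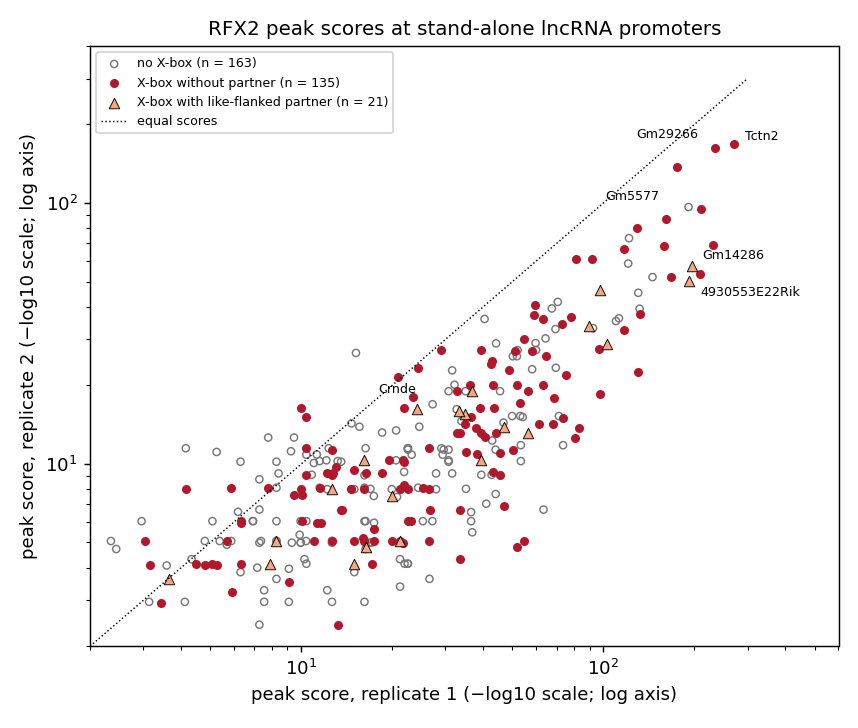
Each point is 1 of the 319 members, placed by its peak score in replicate 1 and replicate 2 on log axes, with its X-box state shown by colour and shape and equal scores by the dotted line. For 292 members the point lies below the line, and the triangles, X-boxes with like-flanked partners, spread along most of the range.

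The strongest member was at Tctn2, with scores of 270 and 169. Tctn2 encodes a tectonic protein of the ciliary transition zone. GENCODE M21 lists the gene as a processed transcript, whereas RefSeq lists it as protein-coding, so the peak is a lncRNA promoter only by the annotation used. Its centre window, chr5:124598628-124598827, is shown whole because it leads the set.
Tctn2: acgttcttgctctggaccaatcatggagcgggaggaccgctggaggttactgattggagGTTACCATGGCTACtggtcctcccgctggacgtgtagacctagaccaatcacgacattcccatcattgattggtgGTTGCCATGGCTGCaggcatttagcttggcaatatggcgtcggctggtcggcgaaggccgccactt

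The capitals mark a pair of X-boxes with 2 mismatches each, G4A and A12T in the site 56 bp upstream of the TSS and A12T and A13G in the site 19 bp downstream. Of the 156 members with an X-box, 142 held 1 site in the window, 11 held 2, 2 held 4 and 1 held 5, and positions are given for the best-matching site. Gm29266 was next, with scores of 235 and 162, a lincRNA promoter that RefSeq places at a protein-coding promoter of Spata13, a guanine nucleotide exchange factor gene. At AC109138.4 the scores were 175 and 137, with an X-box of 3 mismatches 4 bp upstream of the TSS. Gm15123, which shares a peak with Gm15124, had scores of 230 and 69.2, and 4930453O03Rik, antisense within an intron of the cold-sensing channel gene Trpm8, had 161 and 87.1. The peaks at 4930404H11Rik and Gm42161 scored 159 and 210 in replicate 1 and 68.3 and 53.3 in replicate 2. Each of these members had an X-box in its centre window.

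Gm5577 was the exception among the 10 highest. It scored 191 and 96.5, and its best centre match had 6 mismatches, though a site with 3 mismatches lay elsewhere in the peak.

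The label of stand-alone lncRNA was checked against RefSeq. Of the 319 members, 194 matched a RefSeq gene by identifier or symbol, and 5 of those were protein-coding there (Tctn2, Gm11837, Tmem250-ps, Gm21814 and Sptbn5). By position, 13 members met a protein-coding promoter of RefSeq, among them the promoter of Ap3m2 at 1700041G16Rik, that of Ccdc188 at 4933432I09Rik and that of Dnah5, an axonemal dynein heavy chain gene, at Gm49233. Leaving the 13 out left 306 members and changed no call, an alternative chosen after seeing the data.

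Few members carried a gene name, and apart from Tctn2 the named ones ranked from 65 to 311 of 319 by summed score rank. Beyond Tctn2, 14 members had a symbol other than a clone, number or Rik name. Crnde, a lncRNA next to Irx5 that is raised in several tumours, had scores of 27.2 and 16.9 and no X-box in the window. Kcnq1ot1, the imprinted antisense transcript that silences neighbouring genes in cis, had 29.4 and 10.8 and none either. Miat, a nuclear lncRNA first linked to myocardial infarction, scored 15.2 in replicate 1 and 26.6 in replicate 2, the reverse of the usual order. Rmst, which partners SOX2 in neurogenesis, scored 8.28 and 8.10, and Sox2ot, which overlaps Sox2, scored 5.90 and 3.23. Rptoros and Grip1os2, antisense within Rptor and Grip1, held an X-box with 3 and 2 mismatches, as did Sox2ot with 2. Junos, near the gene of the transcription factor JUN, scored 3.04 and 5.06.

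The weakest by summed rank were 4930525C09Rik, Gm9856 and 4930527J03Rik, with replicate 1 scores of 3.16, 3.43 and 3.14. Gm9856 still held a site with 1 mismatch, C14G. The smallest overlap between replicates was 11 bp, at 4930471G24Rik, and the largest was 1505 bp, at Gm26887.

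Promoters of lncRNA genes on opposite strands were met by 9 members, such as 4933432I09Rik with AC118542.1 and Gm10457 with Gm46355, whose scores were 73.1 and 63.2 in replicate 1. In 8 genes 2 members were found, among them Gm10433, with peaks of 59.4 and 14.7 in replicate 1, and AC132353.1, with peaks of 68.0 and 35.1. Such neighbouring peaks are not independent regions.

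Replication by replicate 2 was more frequent at lncRNA promoters than in the list as a whole. Of 705 replicate 1 peaks at stand-alone lncRNA promoters, 319 were met by replicate 2 (45.2%, interval 41.6 to 48.9). The share was 56.6% at protein-coding promoters and 16.6% outside promoters. Since the rule keeps the met peaks, these shares describe the choice of members and are not tested. In the other direction, replicate 1 met 75.8% of the 413 replicate 2 peaks at stand-alone lncRNA promoters. That share was 74.3% at protein-coding promoters and 33.7% outside promoters, also without a test. Among the 705 candidates, the share met fell from 96.5% in the highest score group to 68.5%, 33.8%, 12.3% and 9.22% in the groups below it.

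Just outside the rule, the highest unmet candidate was at 5330438D12Rik (chr10:116508673-116509291), with a score of 40.4, and the nearest replicate 2 peak lay 45618 bp away. At Gm15841 a replicate 2 peak abutted the candidate without overlap, and at Gm9929 the gap was 9 bp. Just inside it, the 11-bp overlap of 4930471G24Rik was enough.

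The combined list, a further peak list deposited with replicate 2, held fewer of the members than of the peaks at protein-coding promoters. It met 122 of 319 members (38.2%, interval 33.1 to 43.7), against a background of 34.2% of all replicated peaks. At protein-coding promoters it met 1015 of 1777 (57.1%), a difference of -18.9 points (two-sided Fisher's exact test, adjusted p = 1.4e-09, interval -24.5 to -13.0). Outside promoters it met 27.2%. The members that the combined list held were the higher ones, with a median score of 54.7 in replicate 1 against 13.0 for the other 197. Members also had lower median scores than peaks at protein-coding promoters, 21.97 against 37.8 in replicate 1 and 9.74 against 18.8 in replicate 2. Whether the difference in share goes beyond this difference in score was not tested. The study's methods describe a filter for peaks reproducible between the replicates. Whether the combined list is its outcome is not given in the sources used here, and it was not taken as an independent measurement.

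Every member met a lncRNA promoter window by the rule, so nearness to a TSS was largely set by the choice. Within that window, the median distance of the peak centre from the nearest lncRNA TSS was -47 bp, upstream. Centres lay within 100 bp in 46.4% of members and in 41.8% of peaks at protein-coding promoters. The promoter window reaches 1000 bp upstream and 500 bp downstream in both classes, so shares upstream of the TSS follow in part from the rule. Centres were upstream in 202 of 319 members (63.3%) and in 68.0% of peaks at protein-coding promoters, a difference of -4.66 points whose interval ran from -10.5 to 0.90 (two-sided Fisher's exact test, adjusted p = 0.11). Among the 156 X-boxes, 127 lay upstream of the TSS (81.4%), 74 within the last 100 bp (47.4%), and the median position was -51.5 bp (quartiles -194 and -15).

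**Figure D4:**
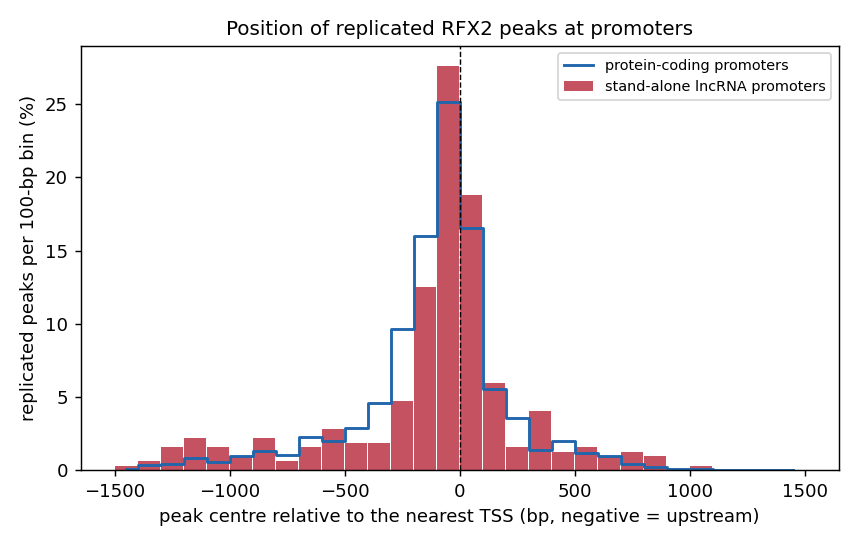
The bars (members) and the line (peaks at protein-coding promoters) give the percentage of peaks per 100-bp bin of distance from peak centre to the nearest TSS, with negative values upstream. Both peak in the bin just upstream of the TSS, at 27.6% of members and 25.2% of protein-coding promoter peaks. Both classes were chosen for meeting a promoter window, which reaches further upstream than downstream.

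By replicate 1 score, the highest members held an X-box more often than the lowest. In 4 groups by summed score rank, from best to last, the share was 65%, 45%, 52.5% and 32.9%, so the fall was uneven. A trend was not tested. All 8060 replicated peaks were cut into 4 equal groups by replicate 1 score. In the highest group, members held an X-box in 63.4% of cases, against 34.4% at protein-coding promoters, a difference of 29.0 points (interval 17.7 to 39.2, Fisher's exact test, adjusted p = 3.9e-06 over 8 tests). In that group the peaks outside promoters were at 64.1%, and their difference from the members did not pass the exact test (interval -11.8 to 9.37 points, adjusted p = 0.91). In the next 2 groups the members were below the peaks outside promoters by 12.8 and 14.8 points (exact test, adjusted p = 0.036 for each). Against protein-coding promoters they were 14.6 points higher in the first of these (exact test, adjusted p = 0.036) and 7.83 points higher in the other (exact test, adjusted p = 0.30). In the lowest group the members were at 35.5%, protein-coding promoters at 29.1% (exact test, adjusted p = 0.37) and other peaks at 49.0% (adjusted p = 0.041). Whether the differences themselves changed between groups was not tested. All these windows were on peak centres. Over all groups, windows on combined summits where there was one gave 54.9% for members and 48.7% at protein-coding promoters. How such windows change the score groups was not tested.

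**Figure D5:**
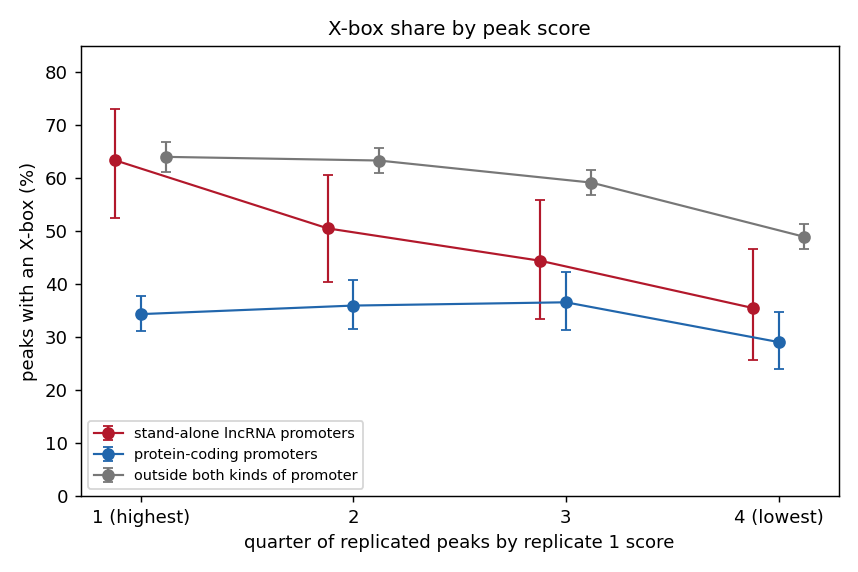
Points give the percentage of replicated peaks with an X-box in the 200 bp around the peak centre, in each of 4 equal score groups. The 3 classes are shown with 95% Wilson intervals over peaks. The members run from 63.4% in the highest group to 35.5% in the lowest, and the peaks at protein-coding promoters from 34.4% to 29.1%.

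In base composition the members again lay between the other classes. The centre windows held 49.4 ± 6.30% G+C (SD over 319 windows), against 55.1 ± 8.88% at protein-coding promoters and 46.8 ± 6.65% outside. The median number of CpG dinucleotides was 3, against 8 and 2. Only 19.4% of members held 6 or more CpGs, compared with 64.0% of peaks at protein-coding promoters. Among windows with 6 or more, the X-box share was 45.2% for members and 30.1% at protein-coding promoters (adjusted p = 0.048 over 3 tests, Fisher's exact test). With 0 to 2 CpGs it was 49.7% and 44.4% (interval of the difference -4.26 to 14.7 points, exact test, adjusted p = 0.33), and with 3 to 5 it was 50% and 39.3% (exact test, adjusted p = 0.095). The difference thus passed the test only in the group with 6 or more CpGs. Whether it differed between the CpG groups was not tested, and these windows too were on peak centres.

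Other sequence motifs were compared with the same flanks, without a test. CCAAT, on either strand, was in 28.5% of members' centre windows and 25.7% of flank windows. The cAMP response element TGACGTCA was in 4 members and 0 flanks. GGCAGTT, a MYB-type motif, was in 12 members and 10 flanks. GTTGCC, the X-box arm without its last base, was in 33.1% of the 163 members without an X-box and in 8.59% of their flanks. This string overlaps the X-box motif.

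By annotation, 209 members were at lincRNAs, 77 at antisense genes, 29 at processed transcripts and 4 at sense-intronic or sense-overlapping genes. An X-box was held by 45.5% of the lincRNA members (exact interval 38.6 to 52.5) and by 57.1% of the antisense members (interval 45.4 to 68.4), and the intervals overlap. Peak centres were intergenic, counting protein-coding genes only, in 247 members, intronic in 59 and exonic in 13. The lncRNA ran antisense to the host gene in 65 of those 72.

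The median distance of members from the nearest protein-coding TSS was 33.2 kb, close to the 32.9 kb of peaks outside promoters. It was at most 2 kb in 13 members and above 50 kb in 131. A list of ciliary genes was made here from gene symbols and symbol stems, such as Ift, Bbs and Dnah, and is not a reference list of the study. The nearest protein-coding gene was on this list for 2 members (0.627%), against 1.85% of all replicated peaks. These were 4933404O12Rik, 8065 bp from Ift22, an intraflagellar transport gene, and Gm49233, 48.9 kb from Dnah5 by GENCODE but at a Dnah5 promoter by RefSeq. Tctn2 is not counted, since GENCODE lists it as non-coding and its nearest protein-coding gene there is Gtf2h3. At protein-coding promoters the share was 6.64%, and outside promoters 0.486%. Foxn3, a forkhead repressor gene, was the nearest protein-coding gene for 4 members, 2 of which were at 3300002A11Rik.

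Counted by gene, 318 of 8208 lncRNA genes with a promoter free of protein-coding promoters had a member (3.87%, exact interval 3.47 to 4.31). For protein-coding genes, 1951 of 21951 had a replicated peak at the promoter (8.89%, interval 8.51 to 9.27). Chromosome 10 held 29 members (9.09%), the largest number, which was not compared with the share of all replicated peaks there. Chromosome X held 4 members (1.25%), against 2.03% of all replicated peaks. Expression of these lncRNAs was not analysed here, so whether a peak goes with transcription is not given.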

How the data were processed

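RFX2 ChIP-seq peaks of mouse testis were taken from 3 deposited lists, 1 for each of the 2 RFX2 samples and a combined list deposited with replicate 2. According to the labels and the study's methods, the authors aligned reads to GRCm38 with Bowtie 0.12.7, discarded reads with several positions and called peaks with MACS2 2.0.10.20130520 (CASAVA 1.8.2 for base calls). Replicate 2 was sequenced in 2 runs, and reads mapping to the human genome were removed from the later run. The scores deposited by the authors are −log10 values, and whether of p-values or q-values is not given in the sources used here. The combined list also holds a deposited score, a fold enrichment (a ratio) and a summit offset, and its fold values were not tested.

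Promoters came from GENCODE M21 (Ensembl 96), a later release than the authors used, and sequences from RefSeq's GRCm38.p6 FASTA. Peaks were sorted into classes with Python 3.11.15, numpy 2.4.6, pandas 2.3.3 and pysam 0.24.0, and shares were tested by Fisher's exact test or exact McNemar test in scipy 1.17.1, all two-sided, with Newcombe intervals of differences and Benjamini-Hochberg adjustment over 5 tests. Wilson and exact intervals cover counting error only. The scripts were tested on simulated data. Genes named were the 10 best and 3 worst members by summed rank, those with a symbol other than a clone, number or Rik name, those with at most 1 mismatch, the extremes of overlap and opposite-strand pairs, the larger sets by counts and examples. Members, lists and tests were chosen with earlier results of these data known.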

Additional observations from a re-analysis of the deposited data

How the results depend on the processing

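Of 95 values recomputed under alternatives, 77 kept their direction and their side of the threshold or moved little. The X-box share against peaks outside promoters reversed when 1 replicate list was used alone, with differences between 10.7 and 21.1 points, and was -3.80 points in the combined list, no longer past the threshold. The X-box share against protein-coding promoters stayed past the threshold before adjustment, at 6.13 points with combined summits and 27.7 in the combined list. With combined summits it did so narrowly (Fisher's exact test, p = 0.045). The p-values under the alternatives were not adjusted over tests, unlike those of the main results. The upstream share ranged from -4.11 to 1.66 points without a replicate, past the threshold at -4.11 only, and was -5.66 points, past it, with genes of the provisional TEC class counted as lncRNA. Members numbered 413 and 705 with 1 replicate list alone (402 and 664 genes), 120 in the combined list (125 genes) and 196 with 50% reciprocal overlap (201 genes). Median scores in replicates 1 and 2 were 27.6 and 11.4 with reciprocal overlap and 29.1 and 11.3 in the top 50% of each list, and 8.28 and 7.47 with each replicate list alone. The cause of these shifts was not tested, except that lists used alone also hold peaks the other lacks. No paired analysis was possible because no result compares groups of samples, and the McNemar test pairs windows within a peak, not samples. Without read counts or depths, the lists cannot show whether a missing peak was absent or undetected.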
